A study of Mus musculus with 16 samples.

Results

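The inhibitory checkpoint receptors Pdcd1, Ctla4, Lag3, Havcr2, Tigit, Cd160, Btla and Entpd1 were examined in mouse CD8+ T cells after CRISPR targeting of Tardbp. The 8 genes were chosen by their GENCODE M21 symbols, out of 55536 annotated genes, a rule that uses no measured value. The set was nevertheless drawn up with earlier results of these data known. All 8 passed the filter on low counts that left 16650 genes for testing. The cells were OT-I CD8+ T cells, whose single antigen receptor, a transgene, recognizes SIINFEKL from ovalbumin. The methods describe OT-I donors as Rag1-/- or Rag2-/- on a C57BL/6J background and the study's mice as of both sexes, with ages given only as a range over all animals and not per library. The donor cells were electroporated with the Cas9 nuclease and either a Control gRNA, also labelled scrambled, or a gRNA against Tardbp, which encodes the RNA-binding protein TDP-43. The cells of both groups were transferred into C57BL/6J recipients that were given the peptide with the costimulatory agonist antibodies anti-OX40 and anti-41BB. CD8+ cells that carried the CD45.1 and CD45.2 markers were sorted from spleen and lymph nodes, on day 4 by the labels and somewhat earlier by the methods. There were 8 libraries per group, which the study's text ascribes to individual recipient mice. That text names both stimulation and sequencing as steps after purification. It does not state whether the sequenced cells were stimulated again. The sorted cells were a pool and not 1 edited clone.

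Inhibitory checkpoint receptors are surface proteins that T cells raise after antigen contact and that dampen signals from the antigen receptor and from CD28 when they bind ligands on other cells. PD-1 (Pdcd1), BTLA and TIGIT carry cytoplasmic tyrosine motifs that recruit phosphatases, and CTLA-4 competes with CD28 for CD80 and CD86. LAG-3 binds MHC class II, TIM-3 (Havcr2) binds galectin-9 among other ligands, CD160 and BTLA share the ligand HVEM, and CD39 (Entpd1) is an enzyme that degrades extracellular ATP. Their sustained expression together is a hallmark of exhausted T cells, while their transient expression accompanies ordinary activation.

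TDP-43 binds UG repeats in RNA, which read as TG repeats in the transcript sequences of the annotation, so the most abundant annotated transcript of each receptor was searched for them. The longest unbroken alternation of T and G is shown in capitals, within 30 bases, for the receptors with the longest runs (Lag3, Tigit and Btla) and for the receptors at the top of the order of levels (Cd160 and Pdcd1).
Lag3-201: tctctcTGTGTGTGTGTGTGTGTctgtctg
Tigit-201: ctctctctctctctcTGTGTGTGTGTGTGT
Btla-202: gtgcctgtgcaTGTGTGTGctagcatgcaa
Cd160-201: ctgtcctgaggaGTGTGcagccacagacca
Pdcd1-201: ctccctaccgccTGTGTGcacacagaatat
The Lag3 run of 17 bases lay at positions 253 to 269 of the 2001-base transcript, in the 5' untranslated region. Among 1133 transcripts of like length (within 10%), 1.68% held a run at least as long. The Tigit run of 15 bases lay at positions 905 to 919, in the 3' untranslated region, and ended with the annotated transcript, and 0.923% of 325 transcripts of like length held one as long. The Btla run had 8 bases and lay in the 3' untranslated region, with a run as long in 28.8% of transcripts of like length. The hexamer TGTGTG, counted on the transcript strand only and with overlapping matches each counted, occurred 8 times in Lag3-201, 6 times in Btla-202, 5 times in Tigit-201, 3 times in Entpd1-201, once in each of Pdcd1-201, Ctla4-201 and Havcr2-201, and not in Cd160-201. It occurred in 71.8% of the 11616 transcripts searched. These matches describe the annotated sequence and were not tested as binding sites, and introns were not searched.

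Promoter windows of 250 bases before the RefSeq start (GRCm38.p6, gene strand) are shown for Pdcd1 and Cd160, the receptors with the highest levels per length, for Tigit, which had the largest fold change, and for Ctla4, whose start nodes differed in use between groups as described further on. Capitals mark the core of the NFAT site, GGAAA on either strand, and the AP-1 site TGANTCA, which none of the windows printed here held.
Pdcd1, chr1:94052554-94052803, minus strand: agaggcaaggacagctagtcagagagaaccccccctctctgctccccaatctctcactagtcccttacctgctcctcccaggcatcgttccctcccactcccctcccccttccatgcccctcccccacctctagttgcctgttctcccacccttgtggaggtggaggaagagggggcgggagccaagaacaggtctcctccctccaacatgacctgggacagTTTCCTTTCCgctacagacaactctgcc
Cd160, chr3:96814522-96814771, minus strand: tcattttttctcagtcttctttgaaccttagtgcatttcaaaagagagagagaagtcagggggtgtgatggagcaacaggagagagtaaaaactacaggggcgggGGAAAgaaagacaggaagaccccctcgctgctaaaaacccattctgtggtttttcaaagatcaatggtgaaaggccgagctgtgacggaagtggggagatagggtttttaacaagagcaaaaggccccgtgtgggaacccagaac
Tigit, chr16:43664185-43664434, minus strand: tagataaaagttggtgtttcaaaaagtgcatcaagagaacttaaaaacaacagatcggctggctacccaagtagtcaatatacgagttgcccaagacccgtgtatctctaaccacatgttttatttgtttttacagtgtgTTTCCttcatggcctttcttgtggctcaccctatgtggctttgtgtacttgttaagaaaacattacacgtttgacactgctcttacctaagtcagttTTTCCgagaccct
Ctla4, chr1:60908775-60909024, plus strand: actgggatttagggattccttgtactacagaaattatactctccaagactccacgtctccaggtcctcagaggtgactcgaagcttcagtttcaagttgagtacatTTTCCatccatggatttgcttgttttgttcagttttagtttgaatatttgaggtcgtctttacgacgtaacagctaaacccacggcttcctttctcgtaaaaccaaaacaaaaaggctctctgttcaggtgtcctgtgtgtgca
The Cd160 window adjoins an alternative first exon whose Psi (the fraction of transcripts that include it) was 0.998 with Control gRNA and 0.999 with Tardbp gRNA. Pdcd1 held a pair of adjoining NFAT cores that began 28 and 23 bases before the start. Tigit held 2 cores, and Ctla4 and this Cd160 window held 1 each. The core occurred in 55.6% and the AP-1 site in 6.75% of all 32851 promoter windows of the same length, so an NFAT core was present in most windows. Havcr2 had the only AP-1 match among the 9 windows of the 7 receptors that the table held.

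Targeting was first checked on Tardbp itself. Tardbp ranged from 172 to 207 CPM (a count scaled to the library total with TMM factors) in Control gRNA, with a median of 198 CPM. The Tardbp gRNA libraries lay between 110 and 147 CPM, with a median of 136 CPM, so the groups did not overlap. The log2 fold change of Tardbp was -0.51 ± 0.056 (SE, n = 8 and 8, edgeR adjusted p = 8.1e-07), so its RNA was lowered and not removed. Counts of a gene cannot show how many of its copies were edited. By immunoblot, the study reported that cells given the Tardbp gRNA made no Tardbp protein, which RNA counts do not measure. The libraries held 56016533 to 94801105 estimated counts in annotated genes. Of all genes tested, 46.7% were called at an adjusted p under 0.05, 23.5% higher and 23.3% lower in Tardbp gRNA, with a median log2 fold change of 0.046 over all genes tested. The 6 CD8 T cell markers (Cd8a, Cd8b1, Cd3d, Cd3e, Cd3g and Cd247) summed to 2529 to 3167 CPM in Control gRNA and 3702 to 4835 CPM in Tardbp gRNA, and all 6 were called higher. Cd4 lay between 0 and 0.601 CPM in all libraries. The 9 B cell markers, 7 of which were tested, summed to 12.1 to 27.4 CPM against 26.6 to 42.7 CPM, and of them Cd22 alone was called, at 11.3 ± 5.2 CPM against 21.2 ± 2.4 CPM (SD, n = 8 each), while Ms4a1 and Cr2 were at 0 in some libraries of both groups. The 4 markers of CD4 and regulatory T cells summed to 7.09 to 27.5 CPM against 12.3 to 31.6 CPM with Ikzf2 called higher, and Foxp3 stayed under 0.5 CPM in all libraries. Myeloid markers summed to 118 to 155 CPM against 130 to 203 CPM, with 2 of 5 tested called higher. Dendritic cell markers summed to 18.9 to 36.9 CPM against 27.8 to 40.2 CPM, with 1 of 4 tested called higher. NK cell markers summed to 1.29 to 5.83 CPM against 3.18 to 10.9 CPM, with 1 of 3 called higher, and red cell precursor markers to 0.214 to 10.8 CPM against 6.17 to 112 CPM, with both tested markers called higher. The deposited RNA concentration, which has no unit in its header, ran from 34.9 to 197.1 among Control gRNA libraries and from 10.1 to 24 among those of Tardbp gRNA without overlap, so it cannot be told apart from the group. The part of these differences in the results below was not tested except where an adjusted value is given.

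Of the 8 receptors, 7 passed the test between Tardbp gRNA and Control gRNA. Tigit, Cd160, Lag3, Entpd1, Btla and Ctla4 rose and Pdcd1 fell, while Havcr2 did not pass. Against the 46.7% of all genes called and the 23.5% called higher, 7 of 8 were called and 6 of 8 were higher. The median log2 fold change over the 8 receptors was 0.45, beside 0.046 for all genes tested. For the 6 CD8 T cell markers, all called higher, the median was 0.53, so a rise of this size was not particular to the receptors. These comparisons are descriptions, since the receptors and the markers were chosen with earlier results of these data known. None of the 8 had groups free of overlap, which 16.9% of all genes did. Since bulk RNA was measured, fewer cells that express a receptor and less of its RNA per cell cannot be told apart.

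**Figure D1:**
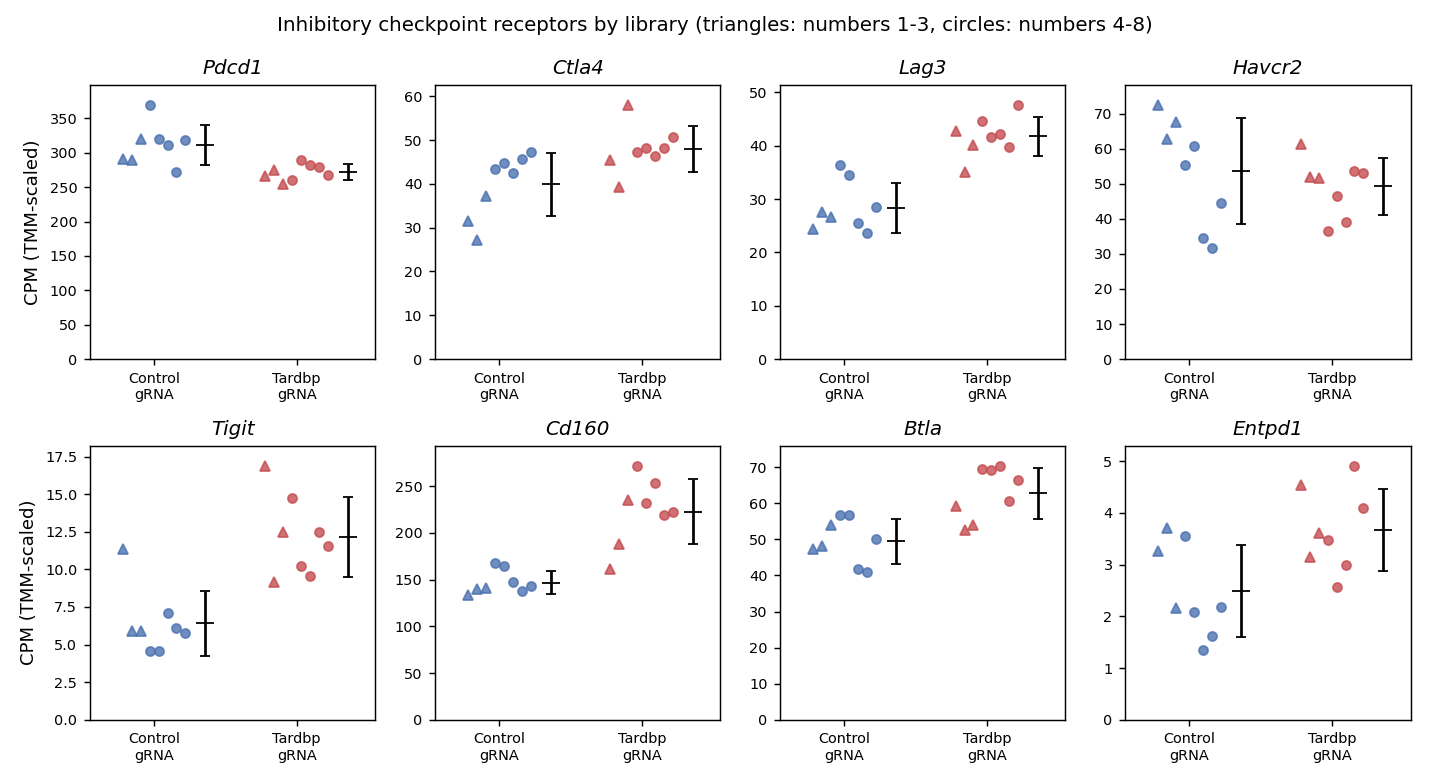
Each panel plots 1 receptor's CPM (vertical axis, from 0) in the 8 Control gRNA and 8 Tardbp gRNA libraries, with the mean and SD in black, triangles for library numbers 1 to 3 and circles for 4 to 8. Cd160 and Lag3 had 7 of 8 Tardbp gRNA libraries above every Control gRNA library, while every Tardbp gRNA library lay within the Control gRNA range for Havcr2.

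Pdcd1 encodes PD-1, the receptor for PD-L1 and PD-L2, and lies on chromosome 1 from 94038305 to 94052553 on the minus strand (GRCm38). It ranged from 273 to 369 CPM in Control gRNA, with a median of 315 CPM, and from 255 to 290 CPM in Tardbp gRNA, with a median of 271 CPM. In Tardbp gRNA 4 of 8 libraries lay below every Control gRNA library, and none lay above. The log2 fold change was -0.20 ± 0.051 (SE, edgeR adjusted p = 0.0040), the only fall among the 8 receptors that passed.

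Cd160 encodes a receptor anchored to the membrane by a lipid that binds HVEM, and lies on chromosome 3 from 96798763 to 96829351 on the minus strand. It ranged from 134 to 167 CPM in Control gRNA, with a median of 142 CPM, and from 161 to 272 CPM in Tardbp gRNA, with a median of 227 CPM. Only the Tardbp gRNA library number 1, at 161 CPM, lay within the Control gRNA range. Cd160 was higher by 0.60 ± 0.085 on the log2 scale (SE, edgeR adjusted p = 1.5e-05), a 1.52-fold higher mean. Cd160 shares 68 of its 2642 exonic bases with Pdzk1 on the opposite strand, which had a mean count of 58.2 against 14804 for Cd160.

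Tigit encodes a receptor for CD155 and CD112 that competes with the activating receptor CD226, and lies on chromosome 16 from 43648867 to 43664146 on the minus strand. It ranged from 4.56 to 11.4 CPM in Control gRNA, with a median of 5.91 CPM, and from 9.13 to 16.9 CPM in Tardbp gRNA, with a median of 12.03 CPM. The Control gRNA library number 1, at 11.4 CPM, stood apart from the other Control gRNA libraries, which lay between 4.56 and 7.10 CPM, and overlapped with Tardbp gRNA. Tigit differed by 0.92 ± 0.17 on the log2 scale (SE, edgeR adjusted p = 2.7e-04), the largest fold change of the 8, and by 1.078 ± 0.14 without that library (edgeR adjusted p = 5.9e-06).

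Lag3 encodes a CD4-like receptor that binds MHC class II, and lies on chromosome 6 from 124904361 to 124911705 on the minus strand. It ranged from 23.7 to 36.5 CPM in Control gRNA, with a median of 27.1 CPM, and from 35.1 to 47.6 CPM in Tardbp gRNA, with a median of 42.0 CPM. Control gRNA libraries number 4 and 5 were its highest in that group, and only the Tardbp gRNA library number 2 lay within the Control gRNA range. Lag3 was higher by 0.56 ± 0.089 on the log2 scale (SE, edgeR adjusted p = 5.0e-05).

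Btla encodes a receptor for HVEM that recruits the phosphatases SHP-1 and SHP-2, and lies on chromosome 16 from 45224315 to 45257670 on the plus strand. It ranged from 41.0 to 56.7 CPM in Control gRNA, with a median of 49.0 CPM, and from 52.5 to 70.3 CPM in Tardbp gRNA, with a median of 63.5 CPM. In Tardbp gRNA 6 of 8 libraries lay above every Control gRNA library, and the 2 that did not were numbers 2 and 3. The Btla fold change on the log2 scale was 0.34 ± 0.083 (SE, edgeR adjusted p = 0.0022).

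Ctla4 encodes the receptor that outcompetes CD28 for CD80 and CD86, and lies on chromosome 1 from 60887000 to 60915832 on the plus strand. It ranged from 27.3 to 47.3 CPM in Control gRNA, with a median of 42.9 CPM, and from 39.3 to 58.0 CPM in Tardbp gRNA, with a median of 47.7 CPM. Control gRNA libraries number 1 and 2, at 31.6 and 27.3 CPM, were its lowest, and only 4 of 8 Tardbp gRNA libraries exceeded the Control gRNA range. On the log2 scale Ctla4 was higher by 0.26 ± 0.10 (SE, edgeR adjusted p = 0.046), and the call was lost in 12 of the 16 fits that each left out 1 library, all but those without Control gRNA number 5, 7 or 8 or Tardbp gRNA number 2 (edgeR adjusted p = 0.027 to 0.11 over the 16). Among library numbers 4 to 8 the log2 fold change was 0.10 ± 0.053 (SE, edgeR adjusted p = 0.14), against 0.54 ± 0.17 among numbers 1 to 3 (edgeR adjusted p = 0.076), and the difference between these was not tested.

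Entpd1 encodes CD39, which with CD73 turns extracellular ATP into adenosine, and lies on chromosome 19 from 40612366 to 40741602 on the plus strand. It ranged from 1.35 to 3.71 CPM in Control gRNA, with a median of 2.17 CPM, and from 2.57 to 4.91 CPM in Tardbp gRNA, with a median of 3.54 CPM. It was the lowest of the 8 in every library, with counts that began at 123, and 3 of 8 Tardbp gRNA libraries exceeded the Control gRNA range. Entpd1 was higher by 0.56 ± 0.20 on the log2 scale (SE, edgeR adjusted p = 0.031), and the call was lost in 9 of the 16 fits that each left out 1 library, those without Control gRNA number 3, 5, 6, 7 or 8 or Tardbp gRNA number 1, 4, 7 or 8 (edgeR adjusted p = 0.012 to 0.085 over the 16).

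Havcr2 encodes TIM-3, and lies on chromosome 11 from 46454935 to 46481255 on the plus strand. It ranged from 31.8 to 72.5 CPM in Control gRNA, with a median of 58.1 CPM, and from 36.5 to 61.4 CPM in Tardbp gRNA, with a median of 51.9 CPM. The whole Tardbp gRNA range lay within that of Control gRNA, where numbers 1 to 3 held 62.8 to 72.5 CPM and numbers 6 and 7 held 34.7 and 31.8 CPM. Between groups Havcr2 differed by -0.12 ± 0.16 on the log2 scale (SE, edgeR adjusted p = 0.55), so a change of either sign was within the error. It was -0.32 ± 0.11 among numbers 1 to 3 (edgeR adjusted p = 0.099) and 0.0082 ± 0.18 among numbers 4 to 8 (edgeR adjusted p = 0.98).

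**Figure D2:**
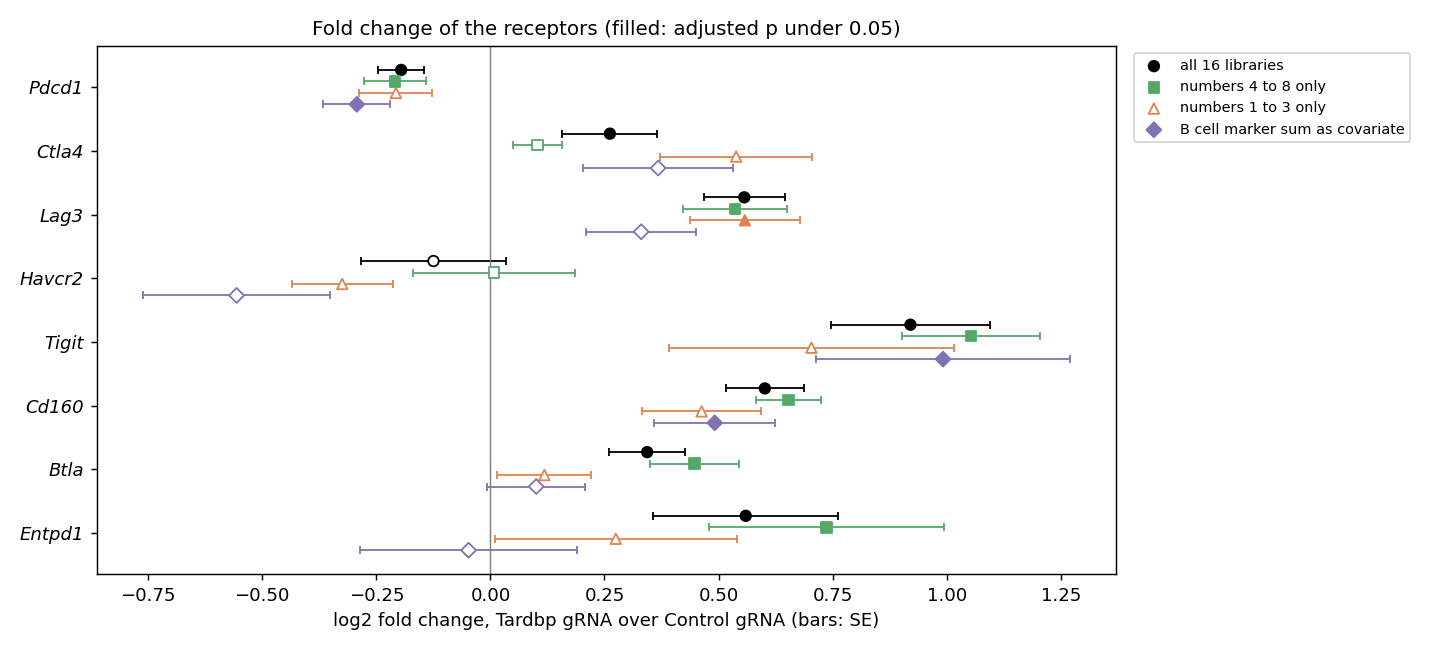
Each row plots 1 receptor's log2 fold change of Tardbp gRNA over Control gRNA (horizontal axis, bars give the SE) in all 16 libraries, in numbers 4 to 8, in numbers 1 to 3 and with the B cell marker sum as a covariate, filled where the adjusted p was under 0.05. Pdcd1, Tigit and Cd160 stayed on their side of 0 and were called in every fit but that of numbers 1 to 3, and Entpd1 lay at -0.05 with the covariate.

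The library numbers 1 to 3 and 4 to 8 stood apart in the second principal component of all genes, which held 8.6% of the variance against 26.8% for the first; the labels give no reason for it. Within numbers 4 to 8 (n = 5 and 5), 6 of the 8 receptors were called beside 40.8% of all genes. Within numbers 1 to 3 (n = 3 and 3), Lag3 alone was called beside 10.1% of all genes, higher by 0.56 ± 0.12 on the log2 scale (SE, edgeR adjusted p = 0.029). Its value among numbers 4 to 8 was 0.54 ± 0.11 (edgeR adjusted p = 0.0025). Btla had 0.45 ± 0.097 among numbers 4 to 8 (edgeR adjusted p = 0.0026) and 0.12 ± 0.10 among numbers 1 to 3 (edgeR adjusted p = 0.51). With the B cell marker sum as a covariate, 3 of the 8 receptors were called, beside 21.3% of all genes. Lag3 then had 0.33 ± 0.12 (edgeR adjusted p = 0.059), Btla 0.10 ± 0.11 (edgeR adjusted p = 0.57) and Entpd1 -0.05 ± 0.24 (edgeR adjusted p = 0.92). Once the RNA concentration (log2) entered the fit, Pdcd1, Tigit and Cd160 were called, beside 16.2% of all genes. Tigit had 1.54 ± 0.33 in that fit (edgeR adjusted p = 0.0049), and Pdcd1 had -0.35 ± 0.10 (edgeR adjusted p = 0.025).

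The deposited letter M or F of each library, under the heading sex, was unevenly spread, with M more common in Tardbp gRNA and F in Control gRNA. It had no tested interaction with the group at an adjusted p under 0.05 (edgeR, 0 of 16650 genes, 662 at an unadjusted p under 0.05). Among the receptors, Lag3 had the smallest unadjusted p for the interaction, 0.057, with log2 fold changes of 0.71 in F and 0.37 in M (edgeR adjusted p = 0.99973). Btla had 0.48 in F and 0.19 in M, and Tigit had 0.89 and 0.88.

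Levels were compared between receptors only per length, as TPM, a transcript's count per base scaled to a fixed library total, rebuilt from the transcript counts and annotated transcript lengths. In Control gRNA the order of mean levels was Pdcd1 at 266 ± 26 TPM, Cd160 at 202 ± 18 TPM, Ctla4 at 34.2 ± 6.3 TPM, Havcr2 at 32.5 ± 8.9 TPM, Btla at 26.3 ± 3.2 TPM, Lag3 at 23.5 ± 4.0 TPM, Tigit at 11.4 ± 3.5 TPM and Entpd1 at 1.05 ± 0.37 TPM (SD, n = 8). Pdcd1 exceeded Cd160 in 8 of 8 Control gRNA libraries (mean log2 ratio 0.39 ± 0.083, SD, exact sign-flip permutation test, two-sided, adjusted p = 0.018 over 14 neighbour pairs, with 0.0078 the smallest unadjusted p the test can give). In Tardbp gRNA the order of this pair was the opposite. Cd160 at 292 ± 42 TPM exceeded Pdcd1 at 222 ± 11 TPM in 7 of 8 libraries (mean log2 ratio 0.38 ± 0.25, SD, exact sign-flip permutation test, adjusted p = 0.022). With the union exon length of each gene in place of transcript lengths, Pdcd1 stood above Cd160 in both groups, at 346 against 207 TPM in Tardbp gRNA, so the order of these genes rests on the length used, while the lower Pdcd1 and the higher Cd160 level in Tardbp gRNA were seen with either length.

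Below these, Tardbp gRNA gave Ctla4 at 39.1 ± 4.2 TPM, Lag3 at 33.0 ± 2.5 TPM, Btla at 32.2 ± 3.3 TPM, Havcr2 at 28.7 ± 5.1 TPM, Tigit at 20.8 ± 4.5 TPM and Entpd1 at 1.53 ± 0.38 TPM (SD, n = 8). Neighbours that did not differ beyond their spread were Ctla4 and Havcr2 as well as Havcr2 and Btla in Control gRNA, and Lag3 and Btla as well as Btla and Havcr2 in Tardbp gRNA (exact sign-flip permutation test, adjusted p = 0.65, 0.11, 0.41 and 0.27). The other 10 of 14 neighbour pairs passed at an adjusted p under 0.05. Pdcd1 made up 44.5% ± 1.3 and Cd160 33.9% ± 1.3 of the receptors' summed TPM in Control gRNA, and 33.3% ± 2.7 and 43.4% ± 4.2 in Tardbp gRNA (SD, n = 8). The sum itself was 597 ± 49 TPM in Control gRNA and 669.7 ± 36 TPM in Tardbp gRNA, and its ranges of 543 to 685 and 608 to 704 TPM overlapped.

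**Figure D3:**
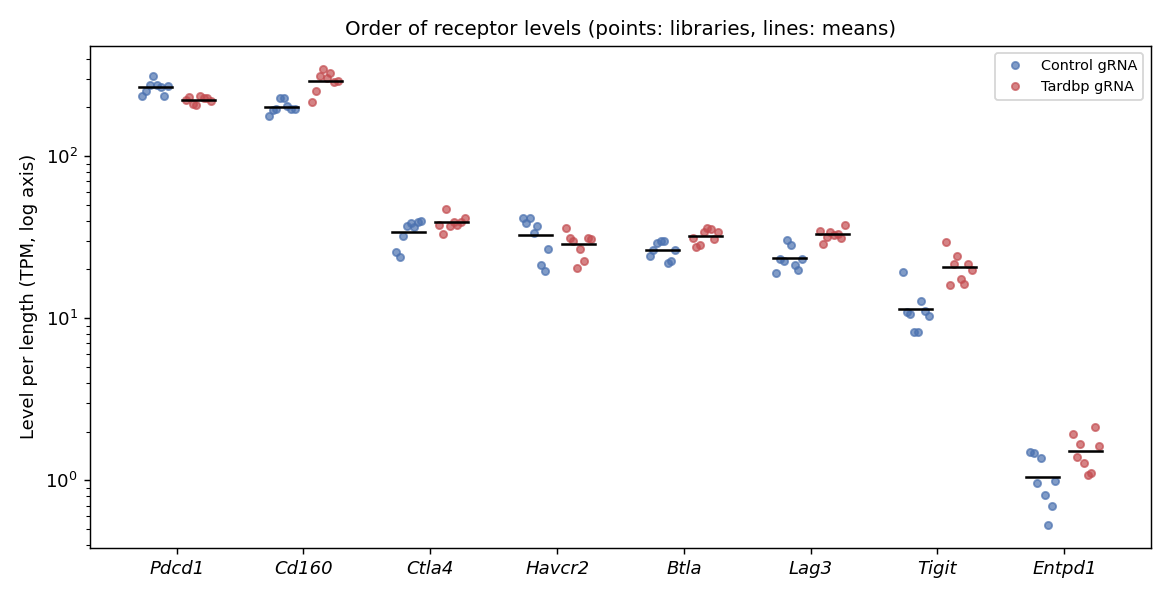
The plot gives each receptor's TPM (vertical log axis) in every library, Control gRNA on the left and Tardbp gRNA on the right of each gene, with lines at the means. Pdcd1 and Cd160 lay at 177 TPM or above in every library and the other 6 receptors at 47.4 TPM or below.

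Of the 26 annotated transcripts of the receptors, 10 passed the filter on low counts. Pdcd1-201, Ctla4-201, Lag3-201, Havcr2-201, Tigit-201 and Entpd1-201 were the only kept transcripts of their genes. Of all transcripts tested 16.6% were called, and of the 10 kept here 6 were called. The log2 fold change was -0.24 ± 0.049 for Pdcd1-201 (SE, edgeR adjusted p = 0.0029), 0.52 ± 0.095 for Lag3-201 (edgeR adjusted p = 0.0012) and 0.87 ± 0.20 for Tigit-201 (edgeR adjusted p = 0.0066). Cd160-201 had 0.55 ± 0.092 (edgeR adjusted p = 5.2e-04), and Cd160-203, whose coding sequence of 423 bases is shorter than the 555 bases of Cd160-201, had 0.61 ± 0.11 (edgeR adjusted p = 7.5e-04). Btla-202 had 0.29 ± 0.088 (edgeR adjusted p = 0.033), a call that was lost without the filter on low counts (adjusted p = 0.070) and with library number as a block (adjusted p = 0.057), and Btla-201 0.58 ± 0.20 (edgeR adjusted p = 0.057). Ctla4-201 had 0.22 ± 0.11 (edgeR adjusted p = 0.21), Havcr2-201 had -0.17 ± 0.17 (edgeR adjusted p = 0.58) and Entpd1-201 had 0.50 ± 0.22 (edgeR adjusted p = 0.14).

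The share of Cd160-201 in its gene went from a fraction of 0.887 ± 0.014 in Control gRNA to 0.881 ± 0.014 in Tardbp gRNA, and that of Btla-202 was 0.954 ± 0.011 and 0.945 ± 0.013 (SD, n = 8, limma adjusted p = 0.79 and 0.47). Neither was called, where 0.630% of all transcript shares were. Ctla4-202, an annotated coding transcript of 3 exons beside the 4 of Ctla4-201, had 15 estimated counts over all libraries, where Ctla4-201 had 56242.

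Psi, the fraction of a gene's transcripts that include a stretch of sequence called a node, came as 1 value per group, so no replicate error could be set on it. Of 125520 nodes in the table, 4.70% differed by over 0.1, and of the 48 nodes of the receptors, 2 did, which is near the share of all nodes. Both were the paired start nodes of Ctla4. The upstream node (chr1:60909025-60909170, the 146 bases that follow the promoter window printed above) went from 0.279 in Control gRNA to a Psi of 0.452 in Tardbp gRNA, and the downstream node (chr1:60909171-60909279) from 0.721 to 0.547. Of all start nodes 20.4% differed by over 0.1, beside 0.932% of core exons. The 2 Ctla4 nodes are complementary and give 1 difference.

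In the other receptors no node differed by over 0.1. In Btla the start nodes went from 0.048 to 0.121 and from 0.953 to 0.879, the end nodes went from 0.648 to 0.564 and from 0.352 to 0.436, and an alternative acceptor of 3 bases (chr16:45244153-45244155) went from 0.404 to 0.479. In Entpd1 the largest difference was in the alternative first exon, from 0.857 to 0.907, in Havcr2 in the exon of 41 bases (chr11:46466872-46466912), from 0.944 to 0.970, in Tigit in the exon of 330 bases, from 0.977 to 0.988, and in Cd160 in the exon of 145 bases, from 0.976 to 0.986. In Lag3 the largest difference was in an exon of 237 bases, from 0.994 to 0.988, and in Pdcd1 all 3 nodes lay between 0.9985 and 0.9993 in both groups.

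To see whether receptors varied together from library to library, deviations of log2 CPM from the group mean were compared over the 16 libraries for 28 pairs. Lag3 and Btla had the highest r, 0.77 (Spearman rho 0.78, permutation test, p = 0.00079 and 0.00083, adjusted p = 0.022 and 0.023). The r was 0.71 without the 2 libraries farthest from the median of Lag3, 0.90 among numbers 4 to 8 and 0.63 among numbers 1 to 3. Cd160 and Btla had an r of 0.57 and a rho of 0.72 (permutation test, p = 0.020 and 0.0019, adjusted p = 0.11 and 0.026). Their r was 0.64 without the 2 farthest libraries, 0.74 among numbers 4 to 8 and -0.35 among numbers 1 to 3. The last value rests on 3 libraries per group and was not tested. Havcr2 and Entpd1 had an r of 0.70 and a rho of 0.66 (permutation test, p = 0.0093 and 0.015, adjusted p = 0.11 and 0.070), with an r of 0.50 without the 2 farthest libraries. Pdcd1 and Tigit had an r of -0.54 and a rho of -0.66 (permutation test, p = 0.066 and 0.0079, adjusted p = 0.26 and 0.065). No other pair had an adjusted p under 0.05 by either measure.

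**Figure D4:**
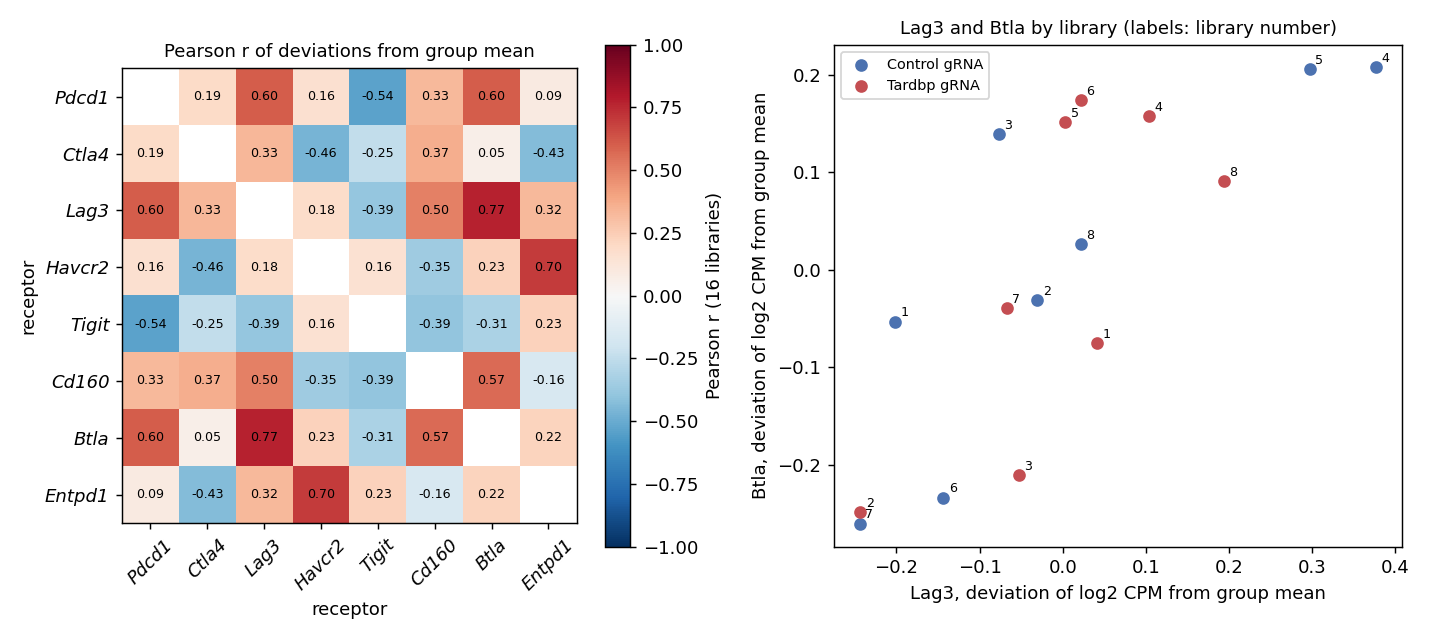
The left panel plots Pearson r for each of the 28 pairs (colour from -1 to 1) of deviations of log2 CPM from the group mean over 16 libraries, and the right panel plots these deviations for Lag3 (horizontal) and Btla (vertical) with the library number beside each point. Lag3 and Btla were high together in Control gRNA numbers 4 and 5 and low together in Control gRNA number 7 and Tardbp gRNA number 2.

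Out of 8976 genes whose log2 CPM averaged 3 or more, those whose deviations were most like a receptor's were named, as a description with no test. Lag3 was most like Ctse (r = 0.89), Cd3e (0.88), a subunit of the CD3 complex, and Crlf2 (0.88). Cd160 was most like Cd3g (0.93), another CD3 subunit, Map1lc3b (0.92) and Oaz1-ps (0.90). Btla was most like Cdc42 (0.94), a small GTPase, Stk17b (0.91) and Cd3e (0.90). Havcr2 was most like Lgals3 (0.87), which encodes galectin-3, Ctsd (0.87), a lysosomal protease, and Sema4a (0.86). Pdcd1 was most like Zfp62 (0.86), Golgb1 (0.81) and Mfsd14a (0.80), and Ctla4 like Zfp410 (0.90), Bnip3l-ps (0.84) and Cpm (0.83). Tigit was most like Mrpl18 (0.89), Creld2 (0.89) and Rpl5-ps1 (0.89), and Entpd1 like Ptpn4 (0.88), Luzp1 (0.86) and Abhd16a (0.85). Oaz1-ps, Bnip3l-ps and Rpl5-ps1 are pseudogenes, whose reads may be shared with their parent genes. Cd3e and Cd3g were called higher in Tardbp gRNA (log2 fold changes 0.44 ± 0.050 and 0.75 ± 0.071, SE, edgeR adjusted p = 1.3e-06 and 2.1e-07), while Cdc42 was not (-0.02 ± 0.035, edgeR adjusted p = 0.59).

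The other genes of the checkpoint pathway were taken from lists of ligands, activating counterparts, signalling effectors, trafficking genes, transcription factors and further inhibitory receptors. All of these shares are read beside the 46.7% of all genes called.

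Of 16 tested ligands and partners, 7 were called, 6 higher and 1 lower, with a median log2 fold change of 0.16. Cd80 fell by 0.96 on the log2 scale (SE 0.27, edgeR adjusted p = 0.0068) and Cd86 rose by 1.36 (SE 0.14, edgeR adjusted p = 3.5e-07), both ligands of CTLA-4 and CD28. Cd80 went from 9.74 ± 4.0 to 5.01 ± 1.1 CPM and Cd86 from 3.33 ± 0.81 to 8.54 ± 1.1 CPM (SD, n = 8). B cells and dendritic cells also express Cd80 and Cd86, and the sums of their markers are given above; their part in these values was not tested. The methods describe a sort for CD8, CD45.1 and CD45.2, and whether other cells remained after it was not tested. The PD-1 ligands Cd274 and Pdcd1lg2 rose by 0.49 and 0.62 on the log2 scale (edgeR adjusted p = 0.032 and 7.3e-04). Lgals9, a ligand of TIM-3, rose by 0.50 (edgeR adjusted p = 4.4e-04). Nt5e, which encodes CD73, the enzyme that follows CD39, rose by 0.78 (edgeR adjusted p = 0.014). Fgl1 and Clec4g, ligands of LAG-3, did not pass the filter.

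Of the 6 activating counterparts, 5 were called and all 5 were higher, with a median log2 fold change of 0.38. Tnfsf14, which encodes the HVEM ligand LIGHT, rose by 0.82 (SE 0.12, edgeR adjusted p = 3.2e-05), from 10.5 ± 1.8 to 18.6 ± 3.7 CPM (SD, n = 8). Slamf6 and Cd2, adhesion and signalling receptors, rose by 0.49 and 0.49 (edgeR adjusted p = 4.2e-07 and 2.1e-06). Icos and Cd28, both costimulatory receptors, rose by 0.27 and 0.15 (edgeR adjusted p = 0.018 and 0.025). Cd226, which shares ligands with TIGIT, had -0.16 ± 0.082 (SE, edgeR adjusted p = 0.12) and was not called.

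**Figure D5:**
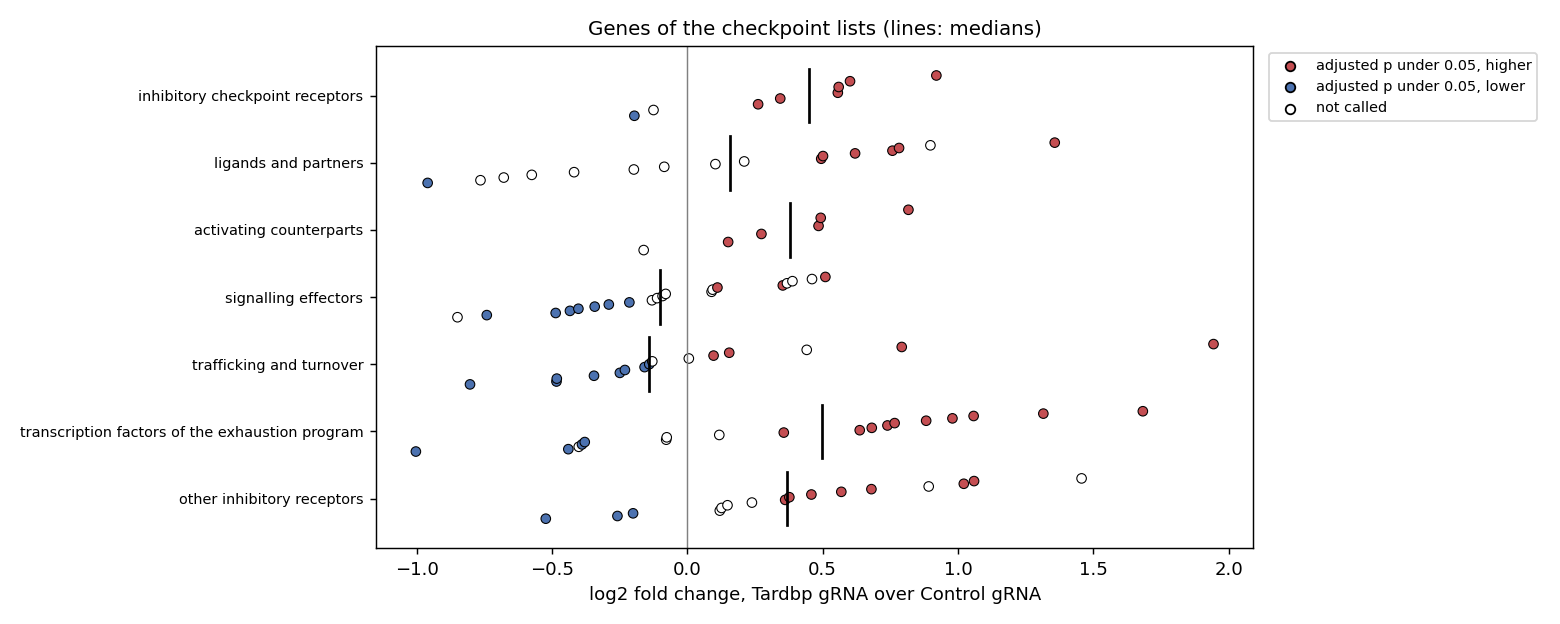
Each point is 1 tested gene of the receptors or of a list, placed by its log2 fold change of Tardbp gRNA over Control gRNA (horizontal axis), red where called higher, blue where called lower and open where not called, with lines at the medians. The medians lay at 0.45 for the receptors and 0.50 for the transcription factors, and at -0.14 for trafficking and turnover.

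Of the 20 signalling effectors, 10 were called, 3 higher and 7 lower, with a median log2 fold change of -0.10. Adora2a, the adenosine receptor of T cells, fell by 0.74 (SE 0.11, edgeR adjusted p = 1.5e-05), from 54.7 ± 4.2 to 32.8 ± 6.5 CPM (SD, n = 8). Ada, which degrades adenosine, fell by 0.49, and Inpp5d, the lipid phosphatase SHIP-1, fell by 0.43 (edgeR adjusted p = 6.7e-05 and 2.1e-04). Sh2d1a, the adaptor SAP, rose by 0.51, Dgkz, a kinase that removes diacylglycerol, by 0.35 and Lck, the kinase at the antigen receptor, by 0.11 (edgeR adjusted p = 0.0061, 0.024 and 0.037). The phosphatases that PD-1 and BTLA recruit were not called, with log2 fold changes of -0.08 ± 0.048 for Ptpn6 (SHP-1) and -0.13 ± 0.059 for Ptpn11 (SHP-2) (SE, edgeR adjusted p = 0.19 and 0.079).

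Of the 15 trafficking and turnover genes, 12 were called, 4 higher and 8 lower, with a median log2 fold change of -0.14. Usp5, a deubiquitinase, fell by 0.80 (SE 0.080, edgeR adjusted p = 3.4e-07), from 208 ± 17 to 119.5 ± 18 CPM (SD, n = 8). Ap2a1, of the adaptor complex that takes CTLA-4 into the cell, fell by 0.48, and Adam17, a protease that sheds LAG-3, fell by 0.48 (edgeR adjusted p = 2.5e-05 and 2.5e-06). Lax1, a membrane adaptor, rose by 0.79 (edgeR adjusted p = 7.6e-07), and Fut8, a fucosyltransferase, and Rab11a, of recycling endosomes, rose by 0.16 and 0.10 (edgeR adjusted p = 0.041 and 0.039).

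Of the 18 transcription factors listed under the exhaustion program, 14 were called, 10 higher and 4 lower, with a median log2 fold change of 0.50. The list also held factors of memory and effector fates, so its median does not measure an exhaustion program. Tox2 rose by 1.68 (SE 0.17, edgeR adjusted p = 3.0e-07), from 1.88 ± 0.50 to 6.03 ± 1.3 CPM, Bach2 by 1.32 (SE 0.18, edgeR adjusted p = 1.0e-05) and Eomes by 1.06 (SE 0.35, edgeR adjusted p = 0.019). Prdm1, which encodes Blimp-1, fell by 1.003 (SE 0.22, edgeR adjusted p = 9.4e-04), from 13.98 ± 3.5 to 6.97 ± 3.0 CPM (SD, n = 8). Tbx21, which encodes T-bet, and Irf4 fell by 0.44 and 0.39 (edgeR adjusted p = 2.0e-04 and 0.0015). Bach2, Eomes and Prdm1 each had 1 library that stood apart from its group.

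Of 16 tested further inhibitory receptors, 10 were called, 7 higher and 3 lower, with a median log2 fold change of 0.37. Klrg1 rose by 1.02 (SE 0.26, edgeR adjusted p = 0.0031), from 3.86 ± 2.2 to 7.81 ± 2.1 CPM, Pecam1 by 0.68 (SE 0.10, edgeR adjusted p = 2.8e-05) and Lilrb4a by 0.57 (SE 0.15, edgeR adjusted p = 0.0043). Klrc1, which encodes the NK receptor NKG2A, fell by 0.52 (SE 0.088, edgeR adjusted p = 9.2e-05), from 433 ± 50 to 302 ± 49 CPM (SD, n = 8). Cd6 and Cd5, which restrain antigen receptor signals, fell by 0.26 and 0.20 (edgeR adjusted p = 0.0075 and 0.028).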

How the data were processed

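RNA of sorted CD8+ T cells was made by the authors into 16 libraries with SMART-Seq v4 and Nextera XT, read as pairs, aligned with HISAT2 2.1.0 to mm10 and counted with StringTie 2.1.0, with SAMtools 1.9 named in the submitters' processing notes. The deposited gene and transcript tables hold estimated counts, whole numbers as given and not normalized. Each read pair gave 1.89 to 2.02 of them, and PCR copies were counted, so counts overstate the number of molecules. The deposited Psi table of the authors gives Psi as a fraction, 1 value per group, and its columns of Psi difference and probability are the authors' own comparison and were not used. The Psi columns are headed by letter, and which letter stands for which group was inferred from exon directions given in the study's text, so a swapped reading would turn the direction of each Psi difference. Of the columns in either count file, 10 matched no sample and were not used. Lines that name no gene (0.0836 to 0.132% of the counts) were left out. Counting was not stated to use strand.

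Genes were tested in R 4.3.3 with the quasi-likelihood test of edgeR 4.0.16 in place of the authors' DESeq2 1.30.1, which became an alternative (DESeq2 1.42.0), over all 16 libraries with no covariate, with TMM factors, the filter of filterByExpr on groups (count at least 10, total at least 15, proportion 0.7) and Benjamini-Hochberg adjustment over the whole table, two-sided. Printed CPM carry the TMM scaling, with 2 as prior count on the log2 scale. Transcripts were tested alike, and shares of genes with 2 or more kept transcripts with limma 3.58.1 (calls needed a difference over 0.1 besides an adjusted p under 0.05). Exact and permutation tests (100000 draws within groups for relations) ran in Python 3.11.15. The edgeR gene test, with means and spread taken from these data, and the limma share test were also run on simulated data. The sources do not say whether libraries of a group came from separate electroporations, so p-values measure the spread between these 16 libraries, which may in part be technical.

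The receptors, the pathway lists and the marker lists were chosen with earlier results of these data known. Named genes were the receptors, Tardbp, up to 3 highest and 3 lowest log2 fold changes per list of the calls (log2 CPM averaging 1 or more), and the 3 genes most like each receptor. Genes outside this rule (Cd226, Ptpn6, Ptpn11, Fgl1, Clec4g and the markers) were named after their values were seen. RefSeq promoter windows (GRCm38.p6) were found for 7 of the 8 receptors, and transcript sequences came from GENCODE M21. Alternatives were another test or scaling, no filter, library number blocks, subsets of libraries, covariates and a stricter threshold.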

Additional observations from a re-analysis of the deposited data

Results flagged for a closer look

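In 108 groups of 8 libraries examined (the receptors in CPM and TPM, Tardbp, the named list genes, depth and genes detected), the highest or lowest library stood apart from the rest of its group 10 times, where chance flags about 5.4. The groups were not independent, since each receptor entered in CPM and in TPM, and 10 against 5.4 was not tested. Tigit in Control gRNA replicate 1 had 11.4 CPM, above the 4.56 to 7.10 CPM of the others, and 19.4 TPM, above their 8.20 to 12.8 TPM. Tardbp in Tardbp gRNA replicate 3 had 110 CPM, below the 130 to 147 CPM of the others. In Control gRNA replicate 1, Ada had 19.3 CPM against 14.4 to 16.5 CPM in the others. Bach2 had 7.72 CPM in Control gRNA replicate 5 against 2.89 to 4.36 CPM, and Dgkz had 115 CPM in Control gRNA replicate 2 against 64.4 to 85.2 CPM. In Tardbp gRNA replicate 1, Eomes had 98.4 CPM against 33.7 to 59.8 CPM, Klrg1 12.8 CPM against 6.25 to 8.22 CPM and Prdm1 13.4 CPM against 4.05 to 8.27 CPM. Klrc1 had 411 CPM in Tardbp gRNA replicate 3 against 248 to 315 CPM. Without Control gRNA replicate 1, the log2 fold change of Tigit was 1.078 (edgeR adjusted p = 5.9e-06), and the receptors called were 6 of 8, beside 45.7% of all genes.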

How the results depend on the processing

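Of 361 alternative values, 308 kept their direction and side of the threshold or stayed within the limit for counts, and 2 reversed. The count of 7 receptors called stayed at 5 to 7 when 1 library was left out (all genes 7265 to 7734) and was 1 with library numbers 1 to 3 only, 3 with the log2 RNA concentration and 3 with the B cell marker sum as covariates, beside 1696, 2697 and 3550 of all genes. Leaving out 1 library gave log2 fold changes of 0.20 to 0.30 for Ctla4 (edgeR adjusted p = 0.027 to 0.11) and 0.46 to 0.66 for Entpd1 (0.012 to 0.085). The calls of the other receptors and of Tardbp were the same in these fits. With numbers 1 to 3 only, the calls were lost for Pdcd1 at -0.21, Ctla4 at 0.54, Tigit at 0.70, Cd160 at 0.46, Btla at 0.12 and Entpd1 at 0.27. With numbers 4 to 8 only, Ctla4 at 0.10 lost its call and Havcr2 turned to 0.0082. Without the filter, Ctla4 at 0.26 and Entpd1 at 0.56 lost their calls, as did Ctla4 at 0.27 with the letter M or F. With the RNA concentration, the calls were lost for Ctla4 at 0.21, Lag3 at 0.53, Btla at 0.21 and Entpd1 at 0.91, and with the B cell marker sum for Ctla4 at 0.37, Lag3 at 0.33 and Btla at 0.10, while Entpd1 turned to -0.048. Fewer libraries entered the fits of numbers 1 to 3 and 4 to 8, and more genes were tested without the filter. Some fold changes also moved, as for Ctla4 in numbers 4 to 8 and Btla in numbers 1 to 3. The cause of a lost call was not tested in any of these fits.

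Library numbers shared by the groups were not taken to pair the libraries, since the labels name nothing that they share and not every same-numbered pair had deviations correlated over 0.1. The correlation was 0.416, 0.238 and 0.209 for numbers 1, 2 and 5 and ran from -0.114 to 0.022 for the others, and 2 of 8 Control gRNA libraries correlated best with their own number. With the replicate block, 7 receptors and 7645 genes were called, and Btla-202 lost its call at 0.29, as it did without the filter at 0.29. Union exon lengths moved Ctla4 to place 4 and Havcr2 to place 3 in Control gRNA, and Cd160 to place 2 and Pdcd1 to place 1 in Tardbp gRNA. At a Psi difference over 0.05, 8 of the 48 receptor nodes in place of 2 differed, beside 12115 of all 125520 nodes. Entpd1, with the lowest counts, had the widest error of the called receptors.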
